A study of Mus musculus with 4 samples.

Results

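The mitochondrial protein import translocases are the membrane machines that carry proteins made in the cytosol into mitochondria. They were taken from the deposited expression table as every gene whose symbol starts with Tomm or Timm and a number, with Timmdc1, Pam16, Dnajc19, Grpel1, Hspa9 and Chchd4 added by name. The rule found 32 of the 36445 genes in the table, 31 of them protein-coding genes and Tomm6os, an antisense RNA. Of these, 29 had at least 1 FPKM (fragments counted per gene, scaled to transcript length and to the mapped fragments of the library) in at least 2 libraries and were tested. MC38, a mouse colon cancer cell line, was cultured for 24 h with 5-fluorouracil (5-FU) at 1 mM or with PBS, the vehicle. RNA was selected by its polyadenylated tail and sequenced in 2 libraries per group. Both groups were the same cell line, with no genetic change named. Whether replicates came from separate cultures is not stated, so p-values cover only the variation between these libraries, which could be technical.

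Nearly all mitochondrial proteins are encoded in the nucleus and are imported after translation. Precursors enter through the TOM complex of the outer membrane, and then part ways. Those with a cleavable presequence pass the TIM23 complex, pulled into the matrix by the PAM motor around mitochondrial Hsp70. Metabolite carriers are chaperoned across the intermembrane space by small TIM proteins and inserted by TIM22, and small cysteine-rich proteins are trapped by the MIA pathway of Chchd4. 5-FU is a chemotherapy drug that disturbs nucleotide synthesis and is built into nucleic acids.

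Estimated depth, in megareads, was 20.8 and 20.6 in the 5-FU libraries, against 41.3 and 41.6 in the PBS libraries. The 29 tested translocase genes each had an estimated 110 or more reads in every library. The 5-FU libraries differed from each other by a median of 0.07 on the log2(FPKM + 1) scale, against 0.27 between the PBS libraries. Of 8 epithelial markers fixed for the check, including Epcam, Cdh1, Krt8 and Krt18, 0 reached 1 FPKM in any library. All 4 mesenchymal markers reached 1 FPKM in at least 1 library, and their sum was 1302 and 1261 FPKM in 5-FU and 1369 and 1485 FPKM in PBS. Within that list Vim, an intermediate filament gene, measured 1069 and 1036 FPKM in 5-FU and 973 and 890 FPKM in PBS, and Fn1, the fibronectin gene, 227 and 218 FPKM in 5-FU and 389 and 588 FPKM in PBS. Of 5 leukocyte markers only Cd68 and Lyz2 reached 1 FPKM; the summed list was 20.4 and 18.7 FPKM in 5-FU and 7.87 and 22.5 FPKM in PBS, with Cd3e listed at 0 in all 4 libraries. Their part in the results was not tested. In such bulk libraries, fewer cells of a type and less RNA per cell cannot be told apart.

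After 5-FU, 12 of the 29 tested translocase genes rose, 3 fell and 14 did not pass the test. The genes that rose encode the receptor Tomm20, all 3 small TOM subunits, the cytosolic partner Tomm34, the carrier chaperones Timm9 and Timm10, the carrier channel Timm22, the presequence channel proteins Timm23 and Timm17a, and the motor parts Pam16 and Grpel1. Those that fell encode the carrier receptor Tomm70a, the TIM23 subunit Timm21 and Timmdc1, a complex I assembly factor. In either direction 15 of 29 passed, against 53.3% of all tested genes. Higher calls made up 41.4% of the tested translocase genes against 22.1% of all 11644 tested genes, and lower calls 10.3% against 31.2%. The median log2 difference was 0.12 over the translocase genes and -0.10 over all tested genes. The test was limma on log2(FPKM + 1), two-sided, with p-values adjusted by Benjamini and Hochberg over all tested genes and a threshold of 0.05, and every adjusted p below is from it. Log2 differences are 5-FU minus PBS with their standard error (SE), and means are given with the SD of 2 libraries. With either 5-FU library left out, 0 translocase genes passed in limma, and in each of these fits 7 higher and 2 lower genes had an unadjusted p under 0.05. Over all genes those fits called 259 higher and 237 lower without 5-FU replicate 1, and 293 higher and 299 lower without 5-FU replicate 2. Without PBS replicate 1, 16 rose and 6 fell, and without PBS replicate 2, 15 rose and 8 fell.

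**Figure D1:**
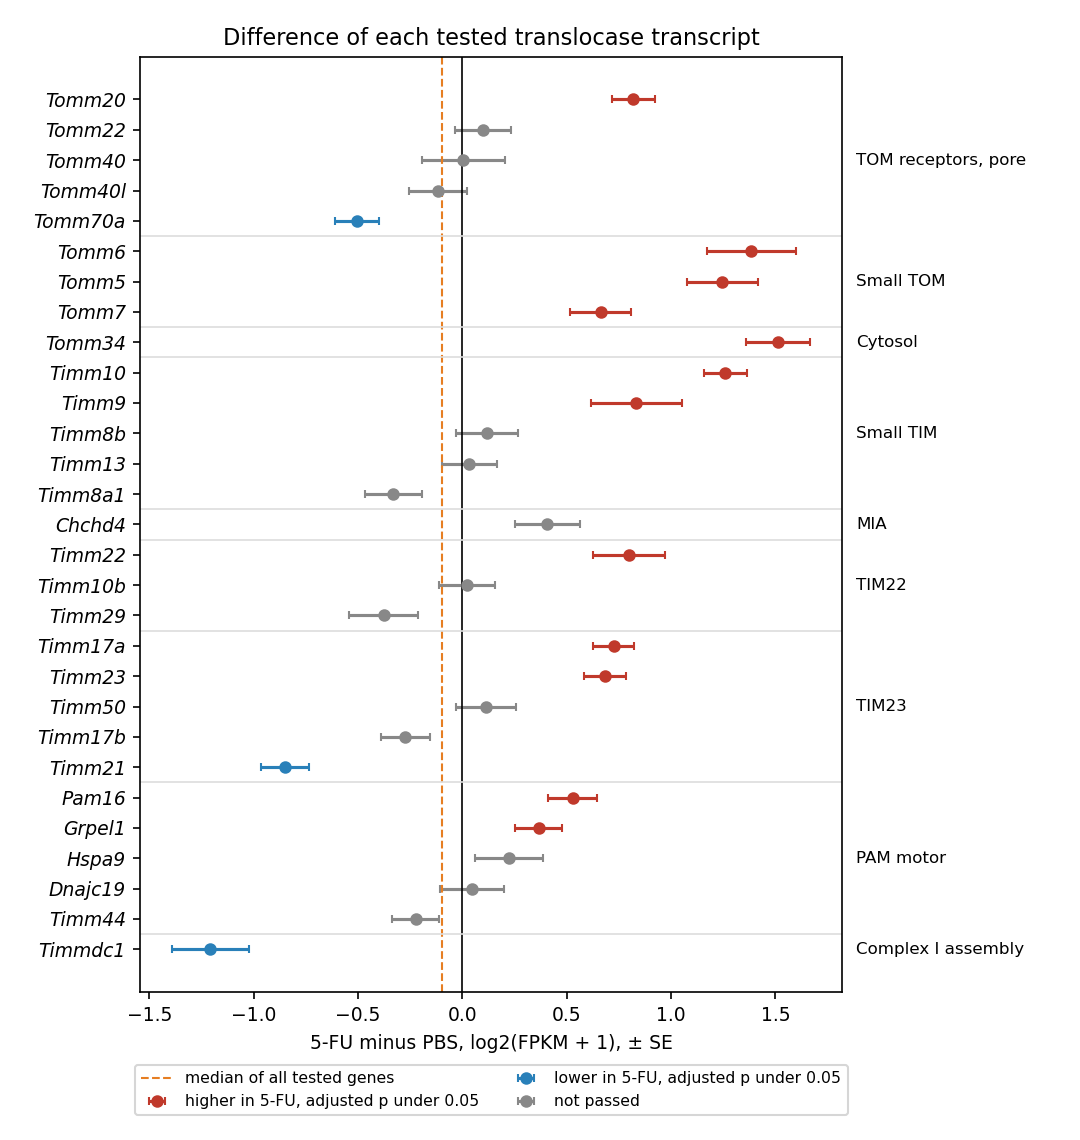
Log2 difference (5-FU minus PBS, log2(FPKM + 1), with SE) of the 29 tested translocase genes, ordered by complex, with the median of all tested genes as a dashed line. All 3 small TOM subunits lie to the right of 0.6, while TOM, TIM22 and TIM23 each hold members on both sides of 0.

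RefSeq promoter windows of GRCm38.p6, from 250 bases before to 50 after each start, were found for 28 of the 32 members, the others being Hspa9, Timm21, Tomm7 and Tomm40l. The letters CCGGAAG, on either strand, are the core of the sites bound by ETS factors such as GABPA, a known activator of nuclear genes for mitochondrial proteins. They stood in the windows of 10 of 25 tested members and in 22.2% of the 8537 tested genes with a window. They were in 4 of 11 members that rose, 2 of 2 that fell and 4 of 12 that did not pass. The letters AAGATGGCG of YY1 were in 1 of the 25, Timm50, and in 4.02% of genes, and TGATGNAAT, an ATF4 composite site, in 0 of the 25 and in 0.527%. Absence says only that these letters are not in these windows. The 150 bases before the start are shown for the 5 members past the threshold that hold CCGGAAG or its reverse complement there, in capitals, 3 that rose followed by 2 that fell. They are Timm10 at chr2:84826871-84827020 plus strand, Timm23 at chr14:32201892-32202041 minus strand, Tomm34 at chr2:164071103-164071252 minus strand, Timmdc1 at chr16:38522664-38522813 minus strand and Tomm70a at chr16:57121564-57121713 plus strand.
Timm10: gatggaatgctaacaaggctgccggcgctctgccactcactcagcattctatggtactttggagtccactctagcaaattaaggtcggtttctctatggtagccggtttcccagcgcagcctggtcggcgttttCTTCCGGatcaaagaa
Timm23: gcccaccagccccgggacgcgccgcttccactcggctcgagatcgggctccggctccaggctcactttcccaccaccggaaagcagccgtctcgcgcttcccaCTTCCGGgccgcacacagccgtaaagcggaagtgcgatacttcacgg
Tomm34: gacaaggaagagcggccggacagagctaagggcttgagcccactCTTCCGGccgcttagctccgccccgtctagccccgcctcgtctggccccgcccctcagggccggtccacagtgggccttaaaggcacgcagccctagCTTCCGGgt
Timmdc1: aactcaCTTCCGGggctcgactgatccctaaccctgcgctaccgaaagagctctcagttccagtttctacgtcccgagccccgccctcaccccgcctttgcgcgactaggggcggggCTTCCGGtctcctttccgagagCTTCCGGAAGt
Tomm70a: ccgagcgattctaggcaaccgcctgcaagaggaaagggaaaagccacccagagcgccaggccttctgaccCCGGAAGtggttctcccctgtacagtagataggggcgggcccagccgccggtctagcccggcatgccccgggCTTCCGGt
Timmdc1 held 4 matches, some of them overlapping on opposite strands, Tomm34 and Tomm70a held 2 each, and Timm10 and Timm23 held 1 each.

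The levels themselves put Hspa9, the mitochondrial Hsp70 at the heart of the motor, far above the rest in both groups. FPKM is already scaled to transcript length, so levels can be set side by side between genes, although the transcript lengths the authors used are not given. The mean was 413 ± 14.1 FPKM in 5-FU and 357 ± 64.7 FPKM in PBS for Hspa9. Tomm5 came next in 5-FU at 125 ± 6.56 FPKM, close to Tomm22 at 122 ± 0.807 FPKM, and the difference between them was within the spread of Tomm5. In PBS, Tomm22 followed Hspa9 at 114 ± 16.1 FPKM and Tomm70a came next at 70.1 ± 4.07 FPKM. Tomm5 had rank 2 in 5-FU and rank 8 in PBS, and Tomm70a rank 12 in 5-FU and rank 3 in PBS. In PBS, Tomm20 at rank 4 measured 58.3 ± 2.99 FPKM and Tomm5 52.6 ± 10.7 FPKM, a difference within the spread of Tomm5. Timm10b was the lowest of the tested genes in both groups, at 1.57 ± 0.028 FPKM in 5-FU and 1.53 ± 0.192 FPKM in PBS. Summed over all 32 genes, the translocases reached 1570 and 1568 FPKM in 5-FU and 1200 and 1215 FPKM in PBS, or 0.403% and 0.405% of all FPKM in 5-FU and 0.349% and 0.338% in PBS.

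**Figure D2:**
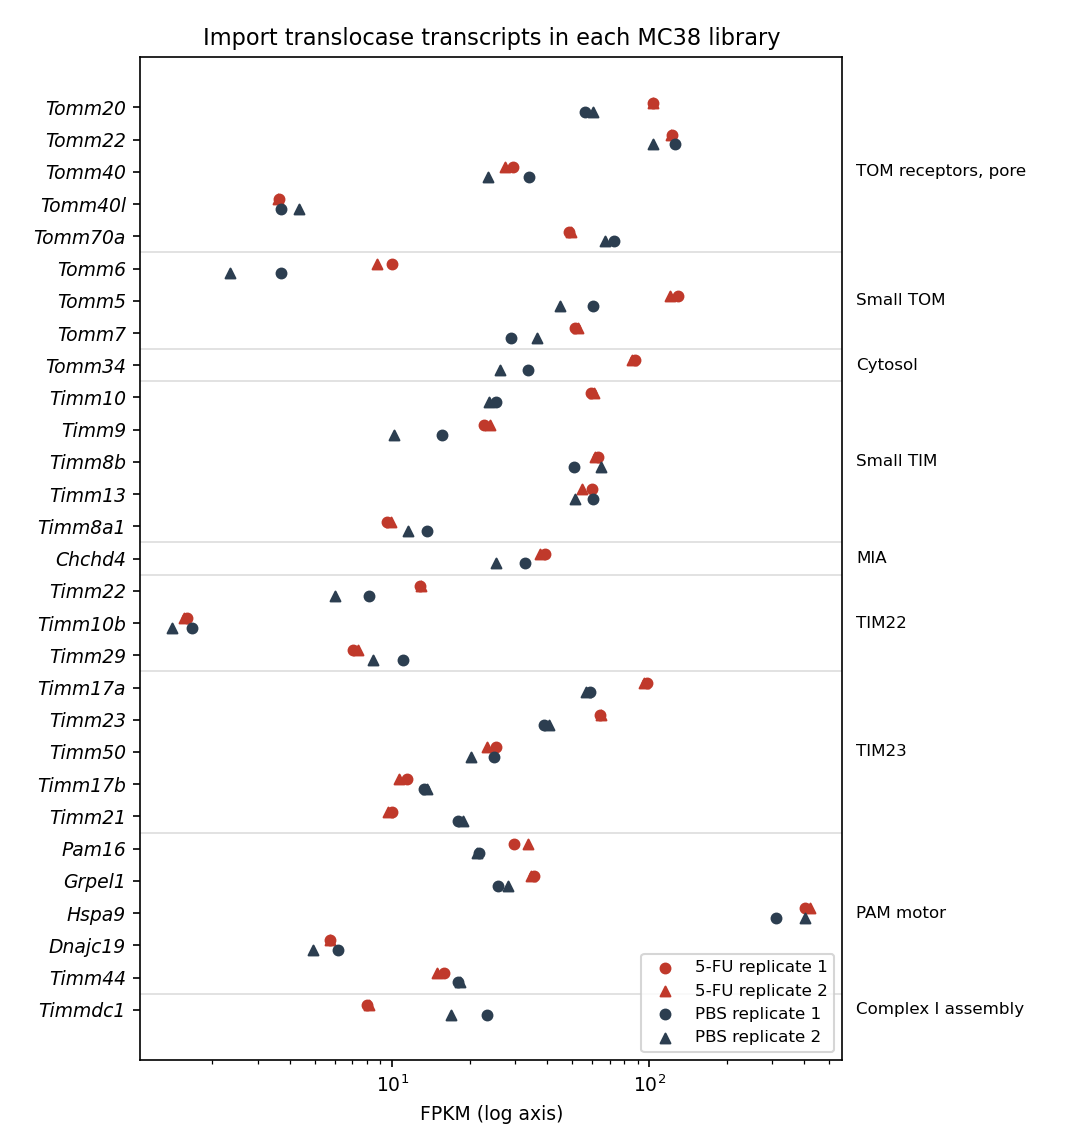
FPKM (log axis) of the 29 tested translocase genes in each of the 4 libraries, 5-FU in red and PBS in dark blue, replicate 1 as circles and replicate 2 as triangles. The 5-FU points of Tomm34, Tomm5, Tomm6 and Timm10 lie well to the right of both PBS points, and those of Timmdc1 and Timm21 to the left.

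At the outer membrane, Tomm20, the receptor for presequences, measured 103 and 104 FPKM in 5-FU against 56.1 and 60.4 FPKM in PBS. The groups did not overlap, and Tomm20 was 1.78-fold higher (log2 difference 0.82 ± 0.10 SE, adjusted p = 0.0052). Its gene lies on chromosome 8, 126930667 to 126945844, minus strand, in GRCm38 with GENCODE M21 as the annotation, the source of all gene positions here. It begins 1327 bp after the end of Rbm34 on the same strand, which measured 25.4 and 26.6 FPKM in 5-FU and 17.3 and 11.5 FPKM in PBS. A Tomm20 pseudogene with 99.5% identity over 435 nt, Gm14494, was listed at 7.68 and 7.94 FPKM in 5-FU and 3.68 and 4.24 FPKM in PBS, so reads may have been split between the copies.

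Tomm70a, the receptor for carrier precursors and a docking site for cytosolic chaperones, went the other way. It measured 48.7 and 49.5 FPKM in 5-FU and 73.0 and 67.3 FPKM in PBS, with both 5-FU libraries below both PBS libraries. It fell by 0.51 on the log2 scale (SE 0.11, adjusted p = 0.0171), and lies on chromosome 16, 57121703 to 57156705. It has the longest span of the tested translocase genes, 35.003 kb, and its difference was -0.21 (adjusted p = 0.17) when the trend of the difference with exonic length was removed.

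Tomm22, the central receptor, measured 122 and 121 FPKM in 5-FU and 126 and 103 FPKM in PBS. The groups overlapped and the difference did not pass (adjusted p = 0.566). Tomm40, the pore of the complex, measured 29.4 and 27.5 FPKM in 5-FU and 33.9 and 23.6 FPKM in PBS (log2 difference 0.01 ± 0.20 SE, adjusted p = 0.985). The PBS libraries lay on either side of the 5-FU pair, and the fits without PBS replicate 1 or 2 passed in opposite directions, at log2 differences of 0.26 and -0.25. Its paralogue Tomm40l measured 3.62 and 3.61 FPKM in 5-FU and 3.71 and 4.33 FPKM in PBS and did not pass (adjusted p = 0.503). Tomm40l shares 64.3% of its exonic bases with Nr1i3 on the opposite strand.

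The 3 small subunits, short membrane proteins that take part in assembly and stability of the TOM complex, all rose. Tomm5 measured 130 and 120 FPKM in 5-FU against 60.2 and 45.1 FPKM in PBS (log2 difference 1.25 ± 0.17 SE, adjusted p = 0.00598; chromosome 4, 45105208 to 45108114). Tomm6 measured 9.98 and 8.75 FPKM in 5-FU against 3.70 and 2.34 FPKM in PBS, a 3.10-fold rise and the largest ratio of means among the tested genes of the group (log2 difference 1.39 ± 0.21 SE, adjusted p = 0.00775; chromosome 17, 47686646 to 47688386). Tomm7 measured 51.5 and 52.8 FPKM in 5-FU against 29.0 and 36.5 FPKM in PBS (log2 difference 0.66 ± 0.15 SE, adjusted p = 0.0195; chromosome 5, 23838944 to 23844161). In none of the 3 genes did the groups overlap. Their summed level was 191 and 182 FPKM in 5-FU and 92.9 and 84.0 FPKM in PBS.

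Read assignment limits these short genes. Tomm6 shares 76.0% of its exonic bases with the same-strand gene model Gm21981, listed at 0.0529 and 0.0535 FPKM in 5-FU and 0.142 and 0.106 FPKM in PBS. It also shares 219 nt with the antisense RNA Tomm6os, which measured 0.652 and 0.494 FPKM in 5-FU and 0.518 and 0.588 FPKM in PBS and was too low to test. A Tomm7 pseudogene with 95.8% identity over 168 nt, Gm13450, was listed at 17.1 and 31.2 FPKM in 5-FU and 5.18 and 0.858 FPKM in PBS, so the value of Tomm7 itself is uncertain. Tomm7 no longer passed with the length trend removed (log2 difference 0.31, adjusted p = 0.141), with quantile normalization (adjusted p = 0.0529) or with no filter on low values (adjusted p = 0.0559), so 2 of the 3 small subunits rose under each of these settings.

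Tomm34, a cytosolic protein that binds Hsp70 and Hsp90 together with precursors on their way to mitochondria, had the largest log2 rise of all tested members. It measured 88.1 and 85.4 FPKM in 5-FU against 33.8 and 26.1 FPKM in PBS. The 5-FU libraries lay far above both PBS libraries, with a 2.895-fold difference (log2 difference 1.51 ± 0.15 SE, adjusted p = 0.00383). The gene lies on chromosome 2, 164053540 to 164071169, minus strand, and overlaps Stk4 on the opposite strand without a shared exonic base. No pseudogene of Tomm34 at 95% identity or more was found in the annotation.

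Among the small TIM chaperones, the pair that forms the soluble carrier chaperone rose. Timm10 measured 59.2 and 60.9 FPKM in 5-FU against 25.3 and 23.7 FPKM in PBS, 2.45-fold higher (log2 difference 1.26 ± 0.10 SE, adjusted p = 0.00299; chromosome 2, 84826997 to 84830213). Timm9 measured 22.8 and 23.9 FPKM in 5-FU against 15.7 and 10.2 FPKM in PBS (log2 difference 0.83 ± 0.22 SE, adjusted p = 0.0314; chromosome 12, 71123173 to 71136684). The groups did not overlap for either gene. With no filter on low values Timm9 did not pass.

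The other small TIM chaperones, Timm8a1, Timm8b and Timm13, which guide a further set of inner membrane precursors, did not pass. Timm13 measured 59.8 and 54.7 FPKM in 5-FU and 60.6 and 51.5 FPKM in PBS, with overlapping groups (adjusted p = 0.844). Timm8b measured 63.4 and 61.7 FPKM in 5-FU and 51.0 and 64.9 FPKM in PBS (adjusted p = 0.535). Timm8a1, whose human counterpart is mutated in a deafness and dystonia syndrome, measured 9.56 and 9.93 FPKM in 5-FU and 13.6 and 11.5 FPKM in PBS (log2 difference -0.33 ± 0.14 SE, adjusted p = 0.101). Both its 5-FU libraries lay below both PBS libraries. Timm8a2 was at 0.105 and 0.159 FPKM in 5-FU, an estimated 2 and 3 reads, and listed at 0 in PBS, and Tomm20l had fewer than 5 estimated reads in each library, so neither was tested.

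In TIM22, the insertion complex for carriers, the channel gene Timm22 rose. It measured 12.9 and 12.98 FPKM in 5-FU against 8.14 and 6.001 FPKM in PBS, with no overlap (log2 difference 0.80 ± 0.17 SE, adjusted p = 0.0184; chromosome 11, 76406952 to 76416292). With no filter on low values it did not pass. Timm29, a subunit of the complex described in human cells, measured 7.01 and 7.34 FPKM in 5-FU and 11.0 and 8.41 FPKM in PBS and did not pass (log2 difference -0.38 ± 0.17 SE, adjusted p = 0.118). Timm10b, a small TIM protein held at TIM22, measured 1.59 and 1.55 FPKM in 5-FU and 1.67 and 1.40 FPKM in PBS (adjusted p = 0.901). It shares 7.73% of its exonic bases with Arfip2 on the opposite strand. Arfip2 measured 11.35 and 11.36 FPKM in 5-FU and 10.9 and 11.67 FPKM in PBS. Timm10b also shares 10.5% with the same-strand gene model Gm45799, for which no value is listed, so its level is uncertain.

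TIM23, the presequence translocase, held members that moved in both directions. Timm23, its channel-forming core, measured 64.4 and 64.8 FPKM in 5-FU against 39.0 and 40.7 FPKM in PBS (log2 difference 0.68 ± 0.10 SE, adjusted p = 0.00707; chromosome 14, 32180162 to 32201898). Timm17a, which pairs with Timm23 in the membrane, measured 97.6 and 95.2 FPKM in 5-FU against 58.9 and 56.9 FPKM in PBS (log2 difference 0.73 ± 0.10 SE, adjusted p = 0.0061; chromosome 1, 135295213 to 135313778). In both genes the groups did not overlap.

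Timm21, a subunit that links TIM23 with the outer membrane and the respiratory chain, measured 9.97 and 9.62 FPKM in 5-FU and 18.1 and 18.8 FPKM in PBS. It fell by 0.85 on the log2 scale (SE 0.11, adjusted p = 0.00581), with no overlap. Timm50, the receptor that takes presequences from TOM, measured 25.3 and 23.4 FPKM in 5-FU and 24.9 and 20.2 FPKM in PBS (adjusted p = 0.535). Timm17b, the paralogue of Timm17a, measured 11.4 and 10.6 FPKM in 5-FU and 13.3 and 13.7 FPKM in PBS (log2 difference -0.27 ± 0.12 SE, adjusted p = 0.111). Timm23 has pseudogenes in the annotation, 2 of them (Gm10171 and Gm10233) identical to it over 628 nt, and none of those in the table exceeded 0.575 FPKM in any library.

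The levels of the 2 Tim17 forms were also set against each other. The ratio of Timm17a to Timm17b was 8.55 and 8.96 in 5-FU and 4.42 and 4.15 in PBS, so that the log2 ratio was 1.03 higher in 5-FU (3.13 ± 0.047 in 5-FU and 2.10 ± 0.064 in PBS). The ratio of Timm10 to Timm10b was 37.3 and 39.4 in 5-FU and 15.2 and 17.0 in PBS, a log2 ratio 1.26 higher in 5-FU. Timm10b was low and shares exonic bases with other genes, so the size of this ratio is uncertain. The ratios of Tomm40 to Tomm40l, Grpel1 to Grpel2 and Dnajc19 to Dnajc15 differed between the groups by 0.15, 0.14 and -0.18 log2, each less than the spread between the PBS libraries. The ratio of Timm8a1 to Timm8b was 0.151 and 0.161 in 5-FU and 0.267 and 0.177 in PBS, without overlap, a log2 ratio 0.48 lower in 5-FU against an SD of 0.42 between the PBS libraries. The ratio of Hspa9 to Hspa8 was 1.24 and 1.31 in 5-FU and 0.687 and 1.95 in PBS. The ratios are given as values and were not tested.

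**Figure D3:**
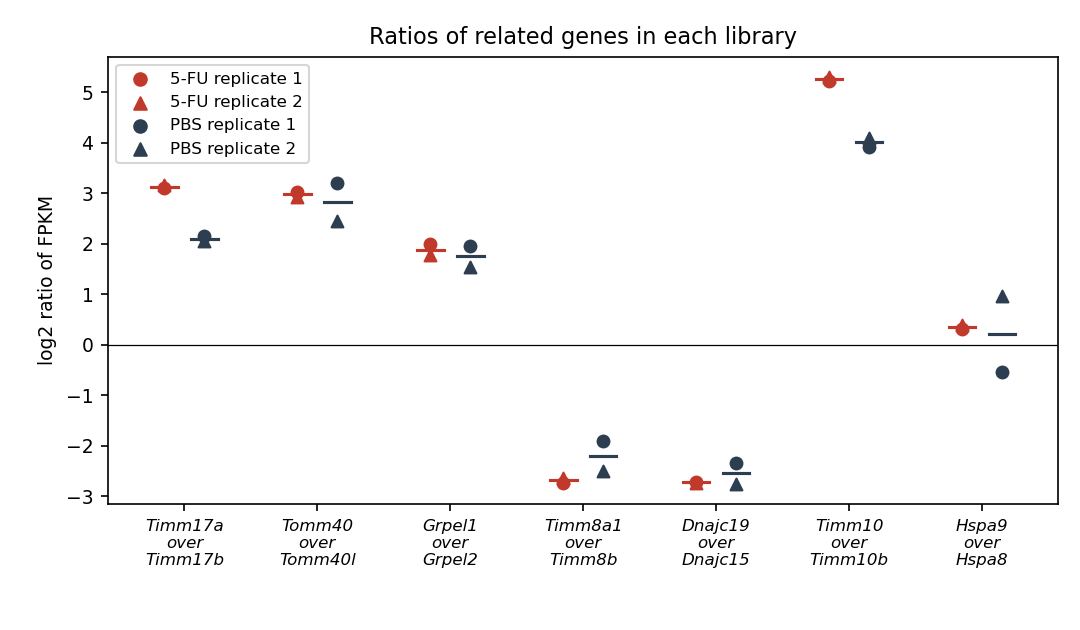
Log2 ratio of FPKM between related genes in each library, with a bar at each group mean, 5-FU left of PBS in each pair. Timm17a over Timm17b and Timm10 over Timm10b separate the groups, while the other ratios overlap or are widely spread in PBS.

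In the PAM motor, the J-like regulator Pam16 measured 29.7 and 33.6 FPKM in 5-FU against 21.8 and 21.4 FPKM in PBS (log2 difference 0.53 ± 0.12 SE, adjusted p = 0.0204; chromosome 16, 4616464 to 4624988). Grpel1, the nucleotide exchange factor that releases mitochondrial Hsp70 from its substrate, measured 35.4 and 34.7 FPKM in 5-FU against 25.8 and 28.3 FPKM in PBS (log2 difference 0.37 ± 0.11 SE, adjusted p = 0.0463; chromosome 5, 36464998 to 36474080). Both rose without overlap of the groups, but Grpel1 lost its call in 9 of 15 alternative settings and Pam16 in 3, without either 5-FU library and with the length trend removed (log2 difference 0.35, adjusted p = 0.0655). With the replicate number as a block, Grpel1 had an adjusted p of 0.0998. Pam16 shares 18.7% of its exonic bases with Glis2 and Grpel1 11.7% with Tada2b, each on the opposite strand. Glis2 measured 5.50 and 5.44 FPKM in 5-FU and 11.96 and 6.92 FPKM in PBS, and Tada2b 4.56 and 4.49 FPKM in 5-FU and 7.03 and 5.64 FPKM in PBS.

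Hspa9 measured 403 and 423 FPKM in 5-FU and 311 and 403 FPKM in PBS, with PBS replicate 2 close below 5-FU replicate 1, and it did not pass (adjusted p = 0.296). Timm44, which tethers Hspa9 to the channel, measured 15.9 and 14.96 FPKM in 5-FU and 18.0 and 18.4 FPKM in PBS (log2 difference -0.22 ± 0.11 SE, adjusted p = 0.154). Dnajc19, the J protein that stimulates Hspa9, measured 5.72 and 5.74 FPKM in 5-FU and 6.17 and 4.92 FPKM in PBS (adjusted p = 0.816). Dnajc19 shares 4.42% of its exonic bases with Fxr1 on the opposite strand. Fxr1 was listed at 116 and 129 FPKM in 5-FU and 82.0 and 102 FPKM in PBS. The strand setting is not given, so the value of Dnajc19 and its ratio to Dnajc15 are uncertain. The motor thus held 2 genes that rose and 3 that did not pass, with a median log2 difference of 0.22. With the length trend removed or without either 5-FU library, neither Pam16 nor Grpel1 passed. The motor held 1 gene that rose with no filter on low values, with quantile normalization, with either other variance prior and with the replicate block. The same count held without mitochondrial-genome transcripts and cytosolic ribosomal protein genes.

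Chchd4, the oxidoreductase that traps cysteine-rich precursors in the intermembrane space, measured 39.4 and 37.7 FPKM in 5-FU and 32.8 and 25.3 FPKM in PBS. The groups did not overlap, but the difference did not pass (log2 difference 0.41 ± 0.16 SE, adjusted p = 0.0854). It passed with median-ratio scaling.

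Timmdc1 shares the fold of the Tim17 family and acts in the assembly of respiratory complex I. It measured 7.97 and 8.13 FPKM in 5-FU and 23.3 and 16.9 FPKM in PBS, 2.50-fold lower in 5-FU and the largest fall of the tested members. The log2 difference was -1.21 ± 0.18 SE (adjusted p = 0.00753; chromosome 16, 38498347 to 38522663), and the groups did not overlap.

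In 22 of the 29 tested members the groups did not overlap, with 5-FU above PBS in 14 and below it in 8. The same held for 81.0% of all tested genes, 35.9% above and 45.1% below. The translocase genes were compact, with a median span of 8.995 kb against 20.02 kb over all tested genes. Among tested protein-coding genes spanning under 10 kb, 27.6% rose and 25.3% fell, and among the 17 translocase genes of that span 7 rose and 1 fell. With the trend of the difference with exonic length removed, 9 translocase genes rose and 4 fell, the last including Timm8a1 and Timm17b and not Tomm70a. Without the 17 members that have a pseudogene at 95% identity or share at least 10% of their exonic bases with another gene, 4 of 12 rose and 2 fell.

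**Figure D4:**
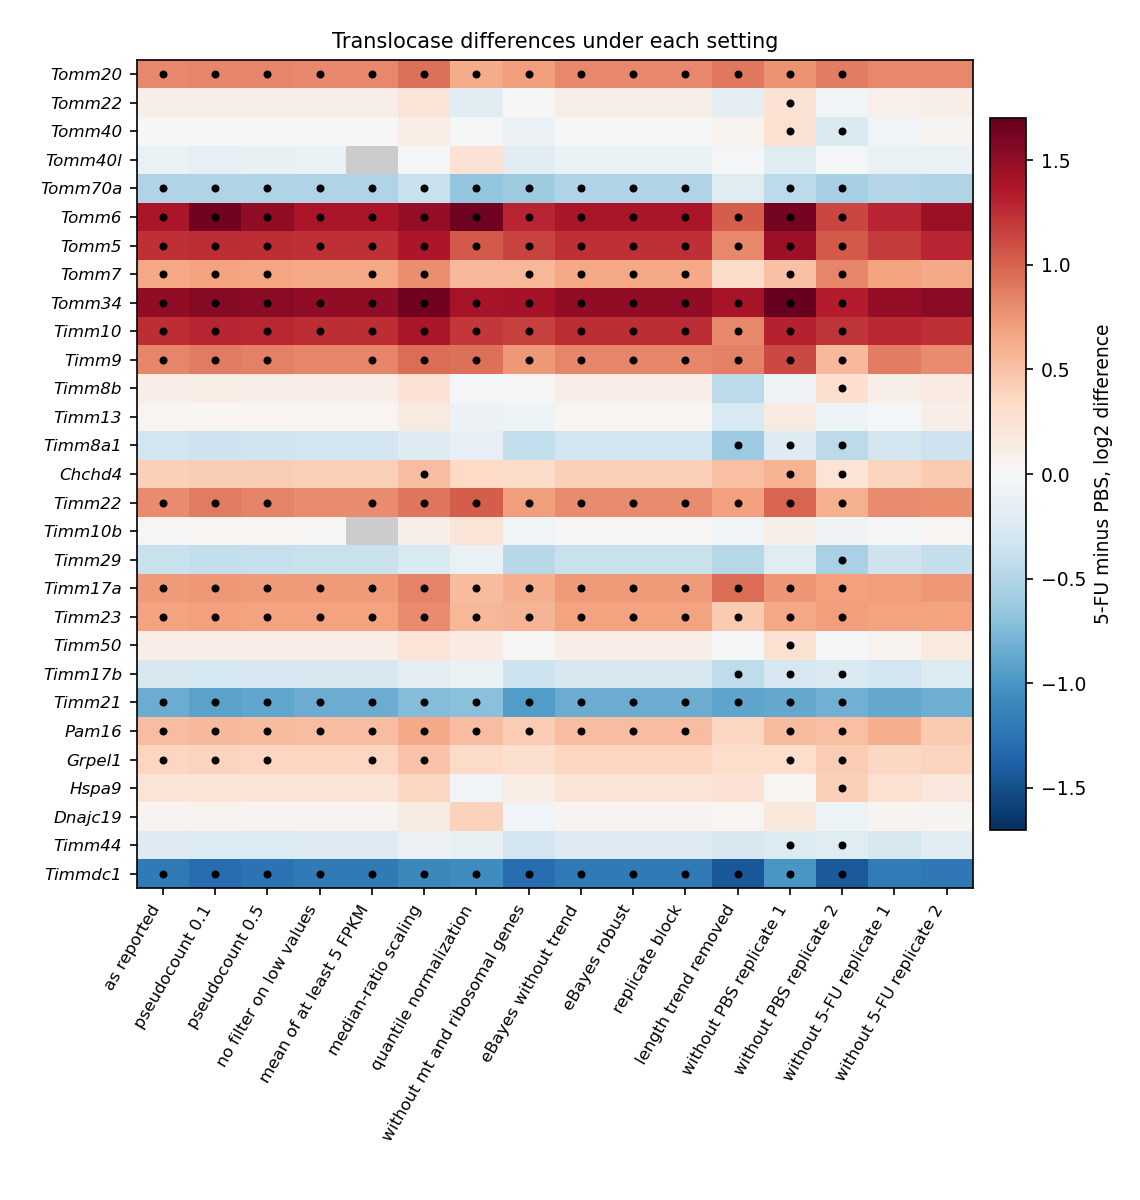
Log2 difference (colour, 5-FU minus PBS) of each tested translocase gene under each setting, with a dot where the adjusted p was under 0.05 and grey where a gene was not tested. The columns without a 5-FU library hold no dot. Timm10, Timm17a, Timm21, Timm23, Timmdc1, Tomm5, Tomm6, Tomm20 and Tomm34 carry a dot in every column that kept all libraries.

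Other genes of the import route were read from lists of partners, processing enzymes and chaperones. Of 7 further translocase partners, 0 passed in limma, in either direction, beside 53.3% of all tested genes. Of these 7, 0 had an unadjusted p under 0.05, while 2 rose and 1 fell with the length trend removed. The nearest to the threshold were Dnajc15, the paralogue of Dnajc19, at 37.5 and 38.0 FPKM in 5-FU and 31.2 and 33.0 FPKM in PBS (adjusted p = 0.127), and Agk, a kinase that is also a TIM22 subunit, at 18.1 and 18.0 FPKM in 5-FU and 16.0 and 14.9 FPKM in PBS (adjusted p = 0.171).

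Of 12 tested substrates of the MIA pathway, 6 rose and 0 fell (median log2 difference 0.44, also 0 lower at an unadjusted p under 0.05). They were the respiratory chain genes Ndufa8, Ndufb7, Ndufs5 and Cox6b1, with Cmc2 and Chchd2, at log2 differences of 0.64, 0.63, 0.59, 0.61, 0.82 and 0.45. With the length trend removed, this list held 2 higher and 2 lower. Of 12 cytosolic chaperones, 3 rose and 0 fell (median 0.26, also 0 lower at an unadjusted p under 0.05). Higher calls made up 50% of the MIA substrates and 25% of the cytosolic chaperones, the latter near the 22.1% of all tested genes. Lower calls made up 31.2% of all tested genes. The precursor-holding chaperone gene Bag6 rose by 0.97 log2, the Hsp70 partner gene Dnaja2 by 0.93 and Hsp90aa1 by 0.41.

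Presequence peptidases and matrix chaperones act on proteins after entry. Of 7 presequence and intermediate peptidases, 4 fell and 1 rose (median -0.49), beside 31.2% lower and 22.1% higher over all tested genes. Pmpca and Pmpcb, the subunits of the peptidase that removes presequences, fell by 0.59 and 0.49 on the log2 scale, Mipep by 1.06 and Xpnpep3 by 1.49, while the inner membrane peptidase gene Immp1l rose by 1.00. The list of matrix folding and quality control genes also held genes of proteins outside the matrix, such as Htra2. Of its 14 genes, 7 fell and 2 rose (median -0.52). The matrix protease gene Lonp1 measured 50.9 and 47.4 FPKM in 5-FU against 152 and 207 FPKM in PBS, and fell by 1.83 on the log2 scale (adjusted p = 0.00365). Htra2 and Spg7, also proteases, fell by 1.09 and 0.98, and the protease subunit gene Clpp and the chaperonin gene Hspe1 rose by 0.87 and 0.60. With no filter on low values 4 of these genes were lower.

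Of 11 outer membrane assembly and cristae genes, 2 fell and 1 rose (median -0.24), beside 31.2% lower and 22.1% higher over all tested genes. Samm50, which inserts beta-barrel proteins such as Tomm40, fell by 0.56 on the log2 scale and Chchd6 by 0.73, and Mtx1 rose by 0.68. Of 4 inner membrane export genes only Cox18 passed, with a rise of 0.92. Of 14 stress and transcription regulators, 4 rose and 4 fell (median -0.15), or 28.6% in each direction, near the shares of all tested genes. Atf5, a factor of the mitochondrial unfolded protein response, rose by 1.26 log2, the coactivator gene Pprc1 by 1.10 and Atf4 by 0.66. Myc, Esrra and Ppargc1b fell by 1.33, 1.10 and 0.99. Nrf1 measured 4.72 and 5.11 FPKM in 5-FU and 5.83 and 5.15 FPKM in PBS (adjusted p = 0.45), and Gabpa measured 27.8 and 30.5 FPKM in 5-FU and 22.05 and 23.6 FPKM in PBS (adjusted p = 0.0627). Differences between lists were not tested. Without either 5-FU library 0 genes of these lists passed in limma, apart from 1 lower in the matrix list in each fit. Without PBS replicate 1 the partners held 3 higher, the outer membrane list 7 lower and the cytosolic chaperones 8 higher and 1 lower. Without PBS replicate 2 the partners held 2 higher and 2 lower, the outer membrane list 5 lower and the cytosolic chaperones 6 higher and 4 lower. Dropping the filter on low values left 1 regulator that rose.

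**Figure D5:**
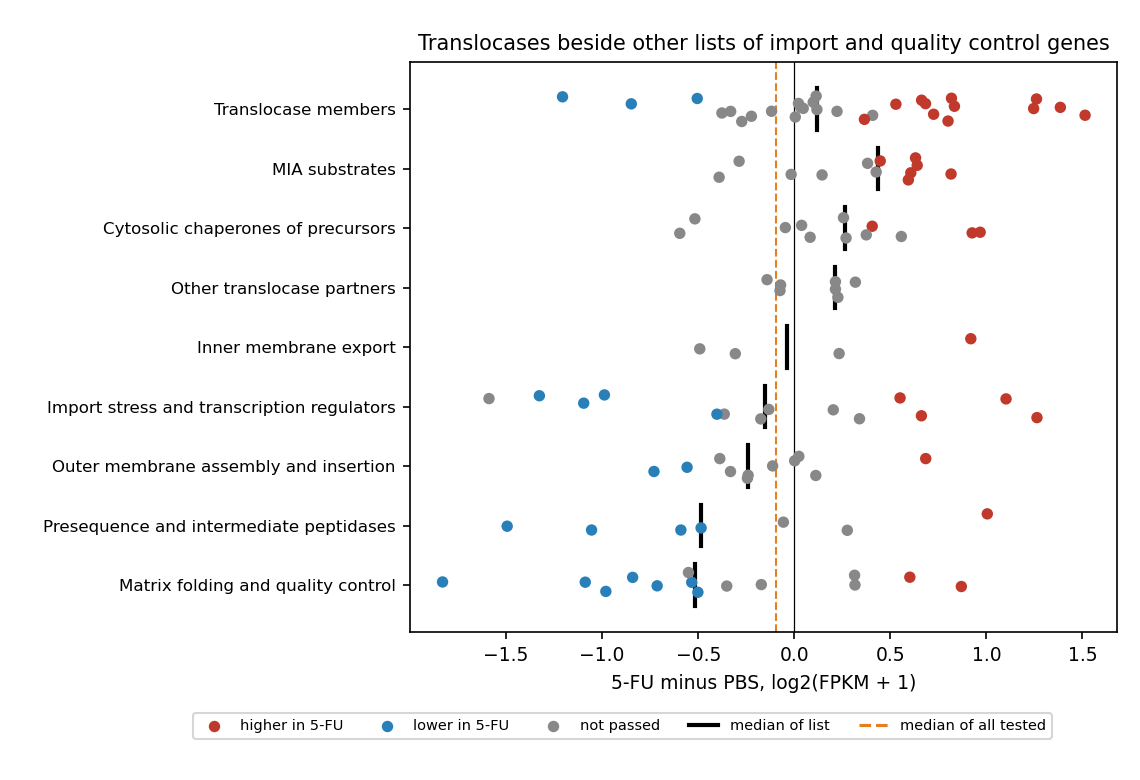
Log2 difference (5-FU minus PBS) of each tested gene in the translocase group and in 8 other lists, coloured by call, with a black bar at each list's median and the median of all tested genes as a dashed line. Medians run from 0.44 for MIA substrates to -0.52 for matrix folding and quality control, with the translocases at 0.12.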

How the data were processed

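The authors deposited 1 table of FPKM values for 36445 genes in 4 libraries (2 of 5-FU, 2 of PBS). STAR 2.4.1a, Picard 2.9.0 and GRCm38 are named, without roles, per the submitters' processing notes. Counting program, annotation, lengths and strand setting: not given in the sources used here. Gene IDs were matched to GENCODE M21, which held 36295 of them. Depth was estimated from the smallest step of FPKM times exonic length, with 63.1% to 65.1% of values under 100 reads within 0.02 of a whole read. Depth limits counting error only.

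Genes reaching 1 FPKM in 2 or more libraries were fitted on log2(FPKM + 1) with limma 3.58.1 in R 4.3.3 (eBayes with trend), after the procedure had been tested on simulated data. The simulated data had the same spread in every gene and library, unlike these libraries, so they cannot check the calls reported here. The pseudocount of 1 understates changes of low genes, and folds are ratios of mean FPKM. Alternatives were pseudocounts of 0.1 and 0.5, other filters, other scalings, other variance priors, a block for the replicate number, removing the trend with exonic length (lowess span 0.3), and each library left out. Pseudogenes were sought with BLAST+ 2.17.0 among GENCODE transcripts, at 95% identity over at least 150 nt. Every member is named. Of other lists every gene past the threshold is named where 6 or fewer passed, otherwise the 3 with the largest difference in each direction, and where none passed the 2 with the smallest p. Nrf1, Gabpa, Tfam, Dele1 and Ddit3 were added after their values were seen. The members and lists were chosen with earlier results of these data known.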

Additional observations from a re-analysis of the deposited data

How the results depend on the processing

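The count of translocase genes that rose was 12 as reported and 9 to 13 under the planned settings that kept all libraries. The count that fell was 3, or 4 with the length trend removed. With no filter on low values, 9 rose but only 8 of them were among the 12 reported. The other was a member too low to test in the reported fit. All 15 calls were kept with both pseudocounts, the mean filter of 5 FPKM and median-ratio scaling. Dropping a PBS library cannot check the calls, because only the 5-FU replicates are then left to set the spread. Those replicates differed by a median of 0.07 on the log2 scale, against 0.27 for the PBS replicates. An alternative chosen after seeing the data gave 4 higher and 2 lower among the 12 members with no shared sequence. Leaving out each library in turn gave 0 to 16 higher and 0 to 8 lower, with a median log2 difference of 0.098 to 0.257. Both zeros came without a 5-FU library, where the error rests on the PBS pair alone, and the highest counts without a PBS library. The member median moved to 0.241 with median-ratio scaling and 0.247 with quantile normalization. Over all genes, leaving out each library gave 259 to 4385 higher and 237 to 5249 lower, with medians of -0.138 to -0.063. The mean filter left 2158 lower. The all-gene median was 0.005 with no filter, -0.023 with the mean filter, 0.013 with median-ratio scaling and 0.021 with quantile normalization. It was -0.196 without mitochondrial-genome transcripts and cytosolic ribosomal protein genes. Higher calls over all genes were 2578 against 3628 lower, and 3193 against 3218 with median-ratio scaling and 2946 against 2825 with quantile normalization. They were 2072 against 3966 without mitochondrial-genome transcripts and cytosolic ribosomal protein genes. The replicate number as a block gave 11 higher and 3 lower members, with only Grpel1 lost. The deviations of same-numbered libraries had a correlation of -0.01 over genes. With 2 libraries per group, this does not settle whether the numbers pair the samples.

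Directions turned only among members that did not pass. With quantile normalization the log2 difference was -0.020 for Tomm40, -0.022 for Timm8b, 0.247 for Tomm40l, -0.098 for Timm13, -0.179 for Tomm22 and -0.053 for Hspa9. Without mitochondrial-genome transcripts and cytosolic ribosomal protein genes it was -0.094 for Tomm40, -0.067 for Timm13, -0.003 for Tomm22 and -0.041 for both Dnajc19 and Timm10b. With the length trend removed it was -0.036 for Timm50, -0.264 for Timm13, -0.156 for Tomm22, -0.447 for Timm8b and -0.042 for Timm10b. Leaving out each library gave ranges of -0.247 to 0.257 for Tomm40, -0.029 to 0.257 for Timm50, -0.082 to 0.15 for Timm13, -0.044 to 0.241 for Tomm22, -0.092 to 0.185 for Dnajc19, -0.054 to 0.289 for Timm8b and -0.055 to 0.099 for Timm10b. The cause was not tested.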
